A study of Morone chrysops with 54 samples.

Results

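Granulins isoform X1 (contig GAZY01178051.1) and disabled homolog 2 (contig GAZY01141422.1) are 2 of the 20914 transcriptome contigs counted in the livers of juvenile white bass (Morone chrysops), and both encode proteins of the lysosomal and endocytic route. They were selected by contig identifier from earlier comparisons of these same libraries with the control diet, in which granulins stood out with Diets 2, 5 and 6 and disabled homolog 2 stood out with Diets 2 and 5. Their levels relative to Diet 1 are therefore a description of how they were selected. No length, transcript sequence or genome position was used here, so the level of one contig cannot be set against that of the other.

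Granulins are small cysteine-rich peptides cut from a secreted precursor, progranulin, which in mammals is taken up and carried to lysosomes and is needed there for normal breakdown of proteins and lipids. Macrophages are a well-known source of progranulin in mammals, although many other cells make it. Disabled homolog 2 is a clathrin adaptor that, in mammals, links receptors of the low-density lipoprotein receptor family to the coat of the forming endocytic vesicle, and it has also been tied to signalling by transforming growth factor beta. Fish carry several granulin genes, and the contig names do not say which one was counted.

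The study asked how the liver transcriptome responds when fish meal is replaced by other protein sources. Every fish was a juvenile fed for 60 days, and 9 livers per diet were sequenced, with 1 library per fish. Diet 2 held reduced fish meal with more soybean meal. Diet 3 held reduced fish meal with poultry by-product meal and soybean meal, and Diet 4 held poultry by-product meal and soybean meal without fish meal. Diet 5 was built on plant proteins only, from soybean meal, canola meal, soy protein concentrate and wheat gluten. Diet 6 combined the commercial blend Pro-Cision with soybean meal and had no fish meal, and Diet 1 was the fish meal control, which also held soybean meal. The fish were fed in tanks, 3 tanks per diet with 3 fish taken from each. The library names of each diet carry 3 T tags of 3 fish, with no statement of what a T tag is, so fish were treated as the replicates and any tank effect is part of the differences between diets.

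Total counts ranged from 5964761 to 17336918 in 53 libraries. The remaining library, Diet 5 replicate 7, held 755 counts with 0 for both contigs and was left out. This leaves 8 fish for Diet 5 and 9 for each other diet. Levels are given as CPM, counts scaled to a common library total after correction by the TMM factor, which allows for differences in RNA composition. None of the 10 hepatocyte markers was at 0 throughout a diet, and their summed level per fish was 16865 to 66830 CPM. The 7 exocrine pancreas markers were detected too, and their summed level ranged from 85.5 to 68313 CPM with Diet 6 and from 12830 to 174241 CPM with Diet 1. In whole liver, fewer cells of a type and less RNA per cell cannot be told apart.

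Granulins was measured with 583 to 4150 counts per library. It ranged from 107 to 168 CPM (median 142) with Diet 2 and from 89.5 to 132 CPM (median 108) with Diet 3. With Diet 4 it ranged from 73.6 to 174 CPM (median 118). The 8 fish fed Diet 5 had the highest median, 167 CPM, with a range of 107 to 215 CPM. With Diet 6 the range was 91.9 to 190 CPM (median 151), and with Diet 1 it was 71.4 to 108 CPM (median 99.1). Of the fish fed Diet 2, 8 of 9 lay above every fish fed Diet 1. The same held for 7 of 8 fish fed Diet 5 and 8 of 9 fed Diet 6, against 5 of 9 fed Diet 3 and 6 of 9 fed Diet 4. For such counts of fish, here and below, the share of all contigs that separate likewise was not computed, so they are a description.

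Disabled homolog 2 was measured with 85 to 610 counts per library, so its counting error was larger. At the lowest count, in Diet 1 replicate 6, the exact 95% Poisson interval was 67.9 to 105 counts, or 10.6 to 16.5 CPM, and this covers counting error only. The contig ranged from 30.1 to 50.5 CPM (median 40.1) with Diet 2 and from 10.5 to 30.6 CPM (median 21.5) with Diet 3. With Diet 4 it ranged from 19.2 to 31.4 CPM (median 24.4). The fish fed Diet 5 were spread most widely, from 17.9 to 68.1 CPM (median 25.6). With Diet 6 it ranged from 5.39 to 23.4 CPM (median 18.3), and with Diet 1 from 13.3 to 30.3 CPM (median 24.3). Every fish fed Diet 6 lay below every fish fed Diet 2, and all 9 fish fed Diet 6 lay below the median of the fish fed Diet 1.

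**Figure D1:**
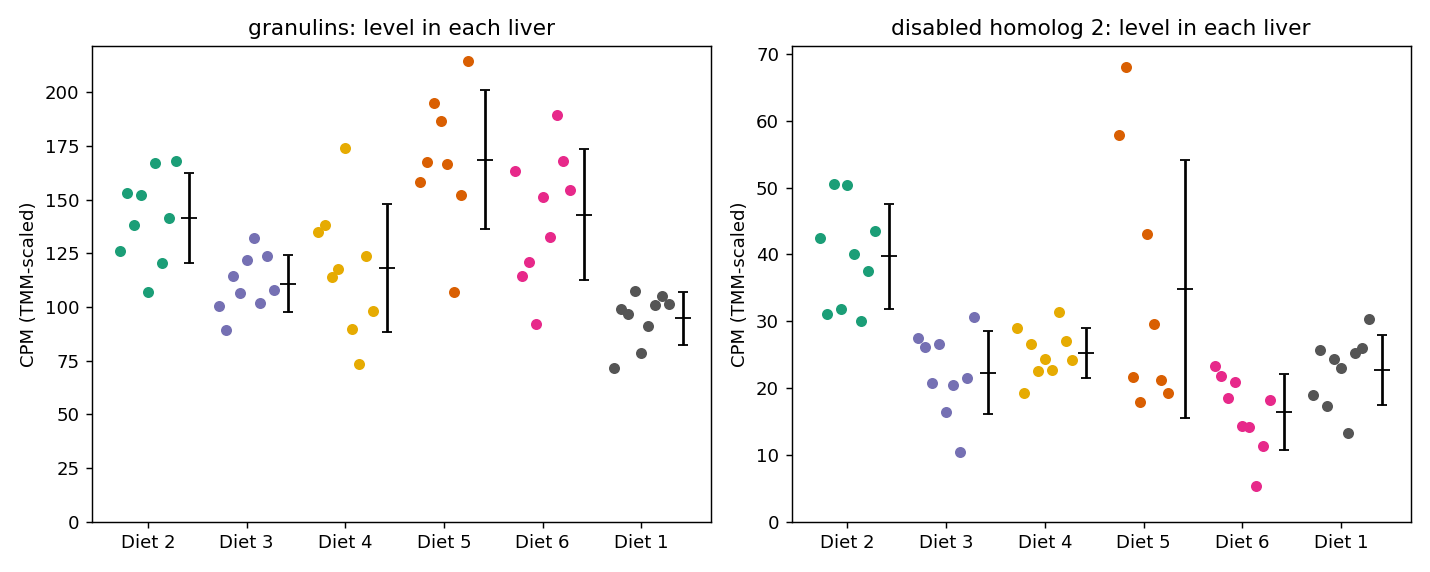
Levels of granulins and disabled homolog 2 in each of 53 livers (points, CPM scaled by TMM factors) for Diets 2 to 6 and Diet 1, with the mean ± SD beside each group. Granulins was high with Diets 2, 5 and 6, whereas disabled homolog 2 was high with Diet 2, widely spread with Diet 5 and low with Diet 6, where 1 fish reached only 5.39 CPM.

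By mean level, granulins was ordered Diet 5 (169 ± 32.3 CPM, SD, n = 8), Diet 6 (143 ± 30.5), Diet 2 (142 ± 20.9), Diet 4 (118 ± 29.8), Diet 3 (111 ± 13.4) and Diet 1 (94.7 ± 12.3, n = 9 for each of these). Of the neighbours in this order, only Diet 3 and Diet 1 differed by more than the SDs of both diets. Disabled homolog 2 was ordered Diet 2 (39.7 ± 7.80 CPM), Diet 5 (34.8 ± 19.4, n = 8), Diet 4 (25.2 ± 3.69), Diet 1 (22.7 ± 5.22), Diet 3 (22.3 ± 6.22) and Diet 6 (16.4 ± 5.71, n = 9 for the others), and no neighbours differed by more than both SDs. The coefficient of variation of disabled homolog 2 was 55.6% with Diet 5 and at most 34.7% with any other diet, while that of granulins was at most 25.2%.

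Relative to Diet 1, which is the comparison that selected the contigs, the log2 fold change of granulins was 0.58 with Diet 2 (SE 0.127), 0.23 with Diet 3 (SE 0.127) and 0.32 with Diet 4 (SE 0.127). It was 0.83 with Diet 5 (SE 0.131) and 0.59 with Diet 6 (SE 0.127). A contig was called at a Benjamini-Hochberg adjusted p under 0.05 by edgeR's quasi-likelihood test and a change of more than 1.5-fold. By this rule granulins was called with Diets 5 and 6, where 6.67% and 2.16% of the 9548 contigs tested were called. It was not called with Diet 2, where 0.0524% were called, and its fold of 1.49 lay just under the threshold there, while its fold of 1.51 with Diet 6 lay just above it. Granulins was called with Diet 2 by a fit of the fish of Diets 2 and 1 alone (log2 fold change 0.59), with the exocrine pancreas score as a covariate (0.61) and in 6 of 53 fits that left out a fish. With Diet 6 the call was lost in 7 of these 53, without Diet 1 replicate 1 or 5 or without Diet 6 replicate 1, 5, 7, 8 or 9, at values of 0.53 to 0.58. With Diets 3 and 4 it was not called, and 0% and 0.0209% of contigs were.

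The same fit gave disabled homolog 2 a log2 fold change relative to Diet 1 of 0.81 with Diet 2 (SE 0.218), -0.029 with Diet 3 (SE 0.218) and 0.15 with Diet 4 (SE 0.217). With Diet 5 it was 0.61 (SE 0.223) and with Diet 6 it was -0.47 (SE 0.218). None of these 5 values was called. The value with Diet 5 was 0.40 without Diet 5 replicate 2, and disabled homolog 2 was called at 0.61 to 0.71 without Diet 5 replicate 3, 4, 8 or 9 or without Diet 6 replicate 7. A fit of the fish of Diets 2 and 1 alone called it with Diet 2 (log2 fold change 0.82), and DESeq2 called it with Diets 2 and 5 (0.81 and 0.63). The 2 contigs thus had values of the same sign with Diets 2, 4 and 5 and of opposite sign with Diets 3 and 6. When library totals alone were used for scaling, the value of disabled homolog 2 with Diet 3 changed sign to 0.045 and that with Diet 6 was -0.058, while granulins with Diet 6 was 1.05. Under this scaling the median over all contigs for Diet 6 over Diet 1 was 0.46, and 2033 of the 9548 contigs were called.

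The 10 pairs of test diets were not used to select the contigs, but 9 of them involve fish of Diets 2, 5 or 6, which were. Granulins was 1.52-fold higher with Diet 5 than with Diet 3 (log2 fold change 0.60, SE 0.131, edgeR adjusted p = 0.00235), with 7 of 8 fish fed Diet 5 above every fish fed Diet 3. In this pair 4.51% of contigs were called. Granulins was selected partly for standing out with Diet 5, so neither this call nor its stability, here and below, is independent of that choice. The change lay close to the fold threshold, and the call was lost when Diet 3 replicate 1 or 2 was left out (0.58 and 0.57), and likewise Diet 5 replicate 3, 4 or 9 (0.57, 0.58 and 0.54). Scaling by library totals alone gave 0.58, also under the threshold. Relative to Diet 4, granulins was 1.43-fold higher with Diet 5 (log2 fold change 0.51, SE 0.131, edgeR adjusted p = 0.0153), below the fold threshold, in a pair in which 2.49% of contigs were called.

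The other 8 pairs of test diets gave no call for granulins, and the adjusted p by edgeR was 0.123 or more. The largest of these differences were those of Diet 6 over Diet 3 (log2 fold change 0.37, SE 0.127) and of Diet 3 over Diet 2 (-0.35, SE 0.127), in pairs with 1.16% and 0.0419% of contigs called. Diet 6 over Diet 2 gave a fold of 1.01 with a 95% interval of 0.851 to 1.20, where 2.52% of contigs were called. Diet 5 over Diet 2 gave 1.19 (0.998 to 1.42, with 1.38% of contigs called) and Diet 6 over Diet 5 gave 0.848 (0.710 to 1.01, with 4.07% called). Diet 4 over Diet 3, the only pair with no fish from the comparisons that selected the contigs, gave 1.07 (0.897 to 1.27), and 0% of contigs were called. For Diet 4 over Diet 2 the fold was 0.835 (0.703 to 0.993, 0% of contigs called) and for Diet 6 over Diet 4 it was 1.21 (1.02 to 1.44, 0.45% of contigs called).

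Of the test diets, Diet 6 gave the lowest level of disabled homolog 2, called lower only in the pairs with Diets 2 and 5. Relative to Diet 1, the value with Diet 6 was -0.47 and was not called. This contig was selected for standing out with Diets 2 and 5, so neither these calls nor their stability are independent of that choice. It was lower with Diet 6 than with Diet 2 by -1.28 on the log2 scale (SE 0.219, edgeR adjusted p = 0.000112), a fold of 0.413, and in 0 of 81 comparisons between a fish fed Diet 6 and a fish fed Diet 2 was the fish fed Diet 6 higher. How many of all contigs separate these fish likewise was not computed. Disabled homolog 2 was lower with Diet 6 than with Diet 5 by -1.09 (SE 0.224, edgeR adjusted p = 0.00110), a fold of 0.471, with 4 of 9 fish fed Diet 6 below every fish fed Diet 5. The share of all contigs called was 2.52% and 4.07% in these pairs, as given above. The first call held in each of the 53 fits that left out a fish, with log2 fold changes of -1.35 to -1.16. The second held in all 53 as well, at -1.18 to -0.87, but a fit of the fish of Diets 6 and 5 alone gave an adjusted p of 0.0506.

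Scaling mattered most for Diet 6, whose TMM factors were 1.06 to 1.36, against 0.849 to 1.00 with Diet 1. With library totals alone the median log2 fold change over all contigs was shifted by 0.42 for Diet 6 over Diet 2 and by 0.36 for Diet 6 over Diet 5. The level of disabled homolog 2 was then lower by -0.88 and -0.74 in these pairs and called in both, by an alternative chosen after seeing the data. Under this scaling 2008 and 1586 of the 9548 contigs were called in these pairs, against 241 and 389 in the main fit. A call under it is therefore not particular to this contig. The granulins value of Diet 6 over Diet 5 changed sign to 0.14 under this scaling, and that of Diet 6 over Diet 2 was 0.45, below the fold threshold (edgeR adjusted p = 0.0159). Granulins was called for Diet 6 over Diet 3 under this scaling, with a log2 fold change of 0.73, where the median over all contigs was shifted by 0.35. In that pair 1190 of the 9548 contigs were then called.

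For disabled homolog 2 the other 8 pairs of test diets were not called. The value of Diet 3 over Diet 2 was -0.83 (SE 0.218, edgeR adjusted p = 0.141), with 8 of 9 fish fed Diet 3 below every fish fed Diet 2. Diet 4 over Diet 2 gave -0.65 (SE 0.217, adjusted p = 0.459 by edgeR), again with 8 of 9 fish below every fish fed Diet 2. In these 2 pairs 0.0419% and 0% of all contigs were called. Diet 5 over Diet 3 gave 0.64 (SE 0.223, edgeR adjusted p = 0.0644), and DESeq2 called it at 0.67. Without Diet 5 replicate 4, 8 or 9 or Diet 6 replicate 7 it was called at 0.64 to 0.74, and over all fits that left out a fish it was at least 0.43. Diet 6 over Diet 4 gave -0.62 (SE 0.218, edgeR adjusted p = 0.206), with 6 of 9 fish fed Diet 6 below every fish fed Diet 4. The values were -0.44 for Diet 6 over Diet 3 (SE 0.218), 0.46 for Diet 5 over Diet 4 (SE 0.222) and -0.19 for Diet 5 over Diet 2 (SE 0.222), and in each of these the groups overlapped. Diet 4 over Diet 3 gave a fold of 1.13 with a 95% interval of 0.844 to 1.52.

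**Figure D2:**
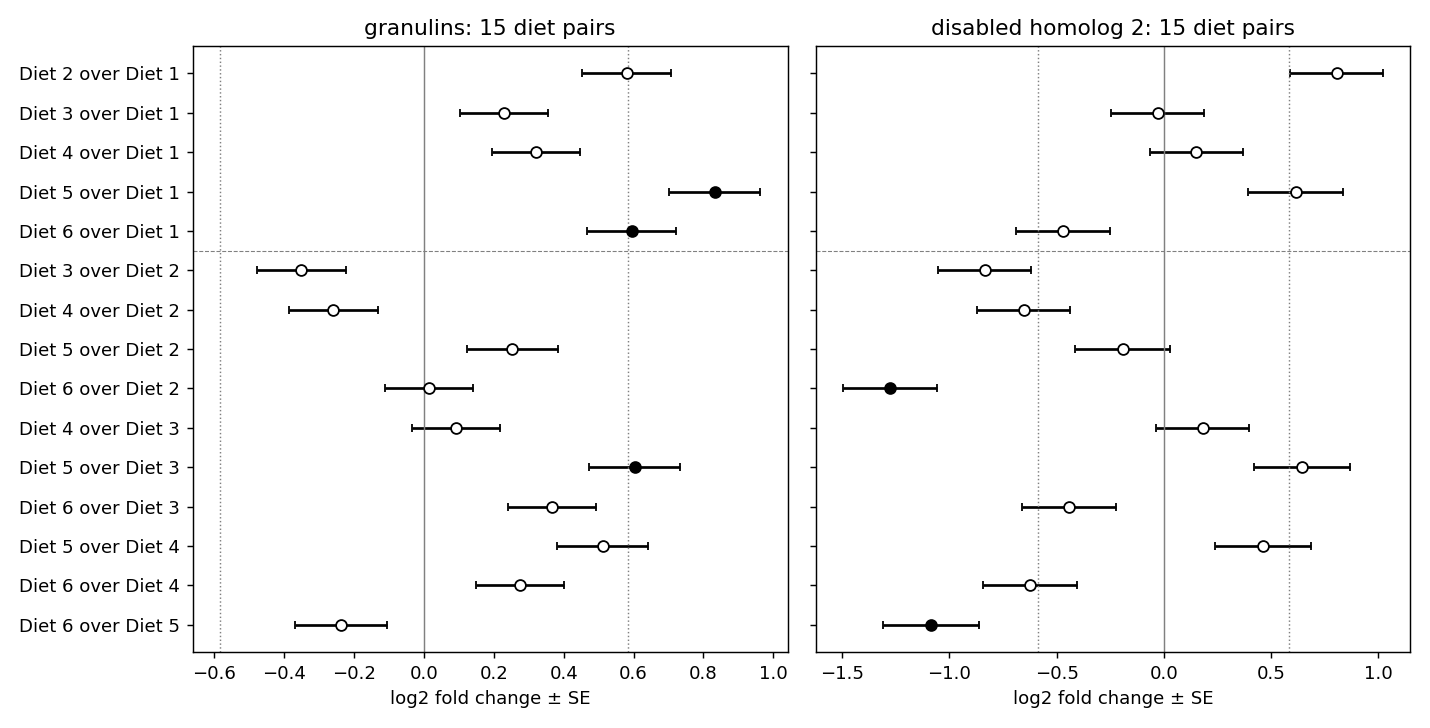
Log2 fold changes ± SE of granulins and disabled homolog 2 in the 15 diet pairs from 1 edgeR fit of 53 libraries, with filled points for calls and dotted lines at 1.5-fold. The 5 pairs above the dashed line are those with Diet 1, and granulins was called in 3 pairs and disabled homolog 2 in 2, with no pair in common.

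Because the 2 contigs parted with Diet 6, the ratio of granulins to disabled homolog 2 was taken in each fish, a measure added after these values had been seen. It does not depend on how libraries are scaled, only its differences between diets can be read, and it is not independent of the calls above. The mean log2 ratio was 1.84 ± 0.399 in Diet 2 fish, 2.37 ± 0.532 in Diet 3 fish and 2.20 ± 0.486 in Diet 4 fish (SD, n = 9 each). Diet 5 fish had 2.43 ± 0.887 (SD, n = 8), Diet 6 fish 3.20 ± 0.897 and Diet 1 fish 2.09 ± 0.338 (SD, n = 9 each). The ratio was higher by 1.35 with Diet 6 than with Diet 2 (SE 0.327, two-sided exact permutation test, adjusted p = 0.00165 over 10 pairs of test diets), and 8 of 9 fish fed Diet 6 lay above every fish fed Diet 2. It was higher by 1.00 with Diet 6 than with Diet 4 (SE 0.340, exact permutation test, adjusted p = 0.0220), a call that was lost without Diet 4 replicate 7 (adjusted p = 0.0539 by the exact test). Diet 6 over Diet 3 gave 0.83 (exact permutation test, adjusted p = 0.0738) and Diet 6 over Diet 5 gave 0.77 (SE 0.433, exact permutation test, adjusted p = 0.159).

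**Figure D3:**
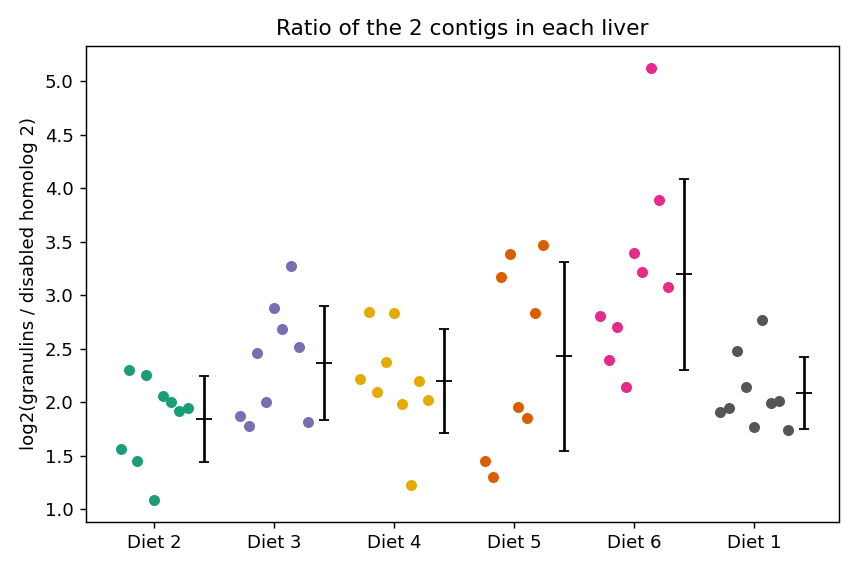
Log2 ratio of granulins to disabled homolog 2 in each liver (points) for Diets 2 to 6 and Diet 1, with the mean ± SD beside each group. The ratios with Diet 6 run from 2.14 to 5.13, and 8 of 9 lie above every ratio with Diet 2.

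The highest ratio, 5.13, came from Diet 6 replicate 7. This fish had the highest granulins level of its diet (190 CPM, from 4150 counts) and the lowest disabled homolog 2 level of all 53 livers (5.39 CPM, from 118 counts). With Diet 5, disabled homolog 2 was 57.9, 68.1 and 21.6 CPM in the fish of T tag 10, 17.9, 43.05 and 29.6 CPM in those of T tag 20, and 21.3 and 19.2 CPM in those of T tag 5. The levels above 40 CPM thus came from 2 T tags, and each of these tags also held a lower fish. Granulins in the same fish was 158, 168 and 195 CPM in T tag 10, 187, 167 and 107 CPM in T tag 20, and 152 and 215 CPM in T tag 5.

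If the T tag marks the tank, the T tag means show how far tanks of one diet differed. Granulins means per T tag were 154 to 183.5 CPM with Diet 5 and 102 to 120 CPM with Diet 3, so that these did not overlap. Disabled homolog 2 means were 11.7 to 21.2 CPM with Diet 6, against 37.0 to 41.4 CPM with Diet 2 and 20.3 to 49.2 CPM with Diet 5, so that only the pair with Diet 5 overlapped. Each diet has only 3 such means, and the share of all contigs whose means separate likewise was not computed. These separations are therefore a description. T tags held 26.9% of the within-diet variance of log2 granulins and 34.7% of that of disabled homolog 2, while they hold 12 of the 47 within-diet degrees of freedom, or 25.5%. With counts summed per T tag, the calls of disabled homolog 2 remained for Diet 6 over Diet 2 (log2 fold change -1.34, edgeR adjusted p = 0.0105) and Diet 6 over Diet 5 (-1.02, adjusted p = 0.0359 by edgeR), and that of granulins remained for Diet 5 over Diet 3 (0.60, edgeR adjusted p = 0.0277). Each of these calls involves a diet with which the contig was selected, so that they are a description. The values of granulins for Diet 6 over Diet 1 were no longer called, with 0.56 for these sums and 0.58 for voom with the T tag as a random block.

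Taking the 3 diets without fish meal (4, 5 and 6) over the 3 with it (1, 2 and 3), the log2 fold change of granulins was 0.31 (SE 0.0740) and that of disabled homolog 2 was -0.16 (SE 0.126). These values hold the comparisons that selected the contigs and are given without a test.

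Across the 53 fish, after each diet's mean was removed, granulins and disabled homolog 2 had a Pearson's r of -0.27 (permutation p = 0.0657) and a Spearman's rho of -0.28 (permutation p = 0.0503). With Benjamini-Hochberg adjustment over 13 relations the p was 0.285 for r and 0.196 for rho, so that a relation was not established. Leaving out the pair of fish farthest from the median gave an r of -0.22 by disabled homolog 2 and -0.26 by granulins. Within the 3 L tags of the library names, whose meaning is not stated, r was -0.35, -0.34 and -0.32. Taken diet by diet, each over 8 or 9 fish and without a test, r was negative in Diets 2 (-0.23), 3 (-0.18), 4 (-0.35), 5 (-0.28) and 6 (-0.63) and positive in Diet 1 (0.41). Among the 9547 other contigs tested, disabled homolog 2 ranked 8705th by its r with granulins.

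**Figure D4:**
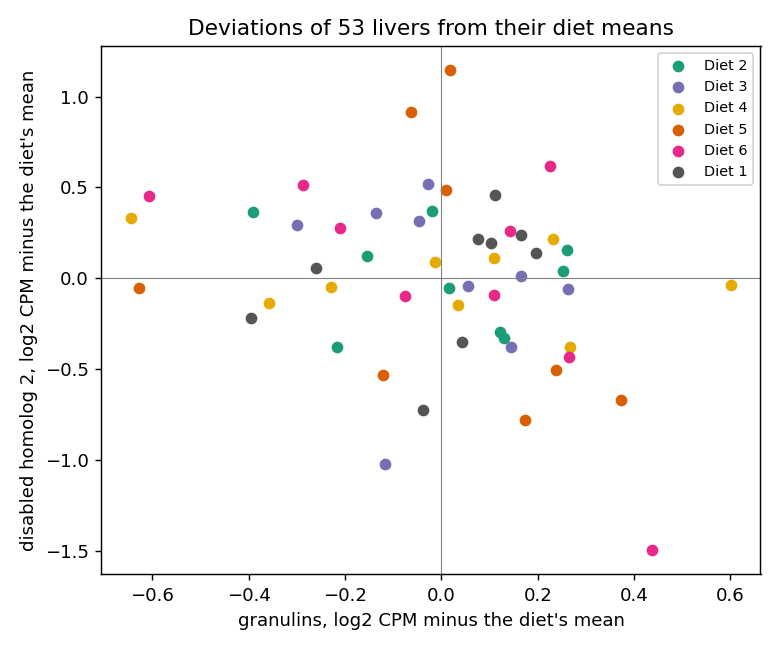
Deviation of each of 53 livers from its diet's mean log2 CPM, granulins on the x axis and disabled homolog 2 on the y axis, coloured by diet. The points slope weakly downward (Pearson's r = -0.27), and the lowest point is Diet 6 replicate 7.

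The other 12 relations set each contig against 6 marker scores, a score being the mean log2 CPM of a marker list. The hepatocyte score had the largest r with both, -0.36 with granulins (permutation p = 0.0118, adjusted p = 0.153) and 0.34 with disabled homolog 2 (permutation p = 0.0268, adjusted p = 0.174), and neither passed the adjustment. Spearman's rho was -0.32 and 0.30 (permutation p = 0.0246 and 0.0321, adjusted p = 0.196 for each). Leaving out the pair of fish with the most extreme scores gave an r of -0.28 and 0.30. Within the L tags they were -0.57, -0.33 and -0.44 for granulins and 0.34, 0.36 and 0.091 for disabled homolog 2. The myeloid score had an r of -0.17 with granulins (adjusted permutation p = 0.422) and -0.033 with disabled homolog 2 (adjusted permutation p = 0.898), and both changed sign when library totals alone were used. The exocrine pancreas score gave 0.19 and -0.16 (adjusted permutation p = 0.422 for each).

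Among the named contigs, lambda-crystallin homolog followed granulins most closely across the 53 fish after removal of diet means, with r = 0.74, and no other contig had a higher r. Clusterin, a secreted chaperone, had r = 0.61 with 3 unnamed contigs above it, and alcohol dehydrogenase class-3-like, an enzyme that clears formaldehyde, had 0.59 with 6. Transmembrane protein 82 had 0.57 with 7 unnamed contigs above it, and myotubularin-related protein 4 isoform X2, a phosphoinositide phosphatase of endosomes, had 0.56 with 8. Nuclear receptor-interacting protein 2 had 0.56 with 10 unnamed contigs above it. All contigs other than granulins itself had a median r of -0.030, and 90% of them lay between -0.32 and 0.31.

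Disabled homolog 2 was followed by cytochrome c oxidase subunit I, a mitochondrially encoded subunit of the respiratory chain, with r = 0.62 and 5 unnamed contigs above it. Death-associated protein kinase 2 isoform X2 had 0.58 with 16 unnamed contigs above it, and Sua5 yciO yrdC domain containing protein had 0.57 with 21. Heparin cofactor 2, a plasma protease inhibitor made by hepatocytes, had 0.56 with 28. For type-2 ice-structuring protein-like, r was 0.54 with 33 unnamed contigs above it, and for proline-rich protein 15-like protein it was 0.53 with 44. The median over all other contigs was 0.016, and 90% lay between -0.31 and 0.36. These likenesses are a description across fish that share diets, depth and scaling.

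The lysosome and endocytosis lists were made from contigs that the study named as differentially expressed in these libraries, so that they are not independent of the diets. Of 14 lysosomal contigs, 8 had a positive r with granulins (median 0.039) and 9 with disabled homolog 2 (median 0.13). The V-type proton ATPase catalytic subunit A, part of the pump that acidifies lysosomes, had an r of 0.47 with granulins and -0.26 with disabled homolog 2. The V-type proton ATPase subunit E 1-like contig gave 0.32 and -0.13. In contrast, cathepsin L-like, a lysosomal protease, had -0.30 with granulins and 0.42 with disabled homolog 2, and sialin-like, named for a lysosomal sialic acid exporter, had -0.46 and 0.27. Of 21 contigs of endocytosis and sorting, 12 had a positive r with granulins (median 0.069) and 9 with disabled homolog 2 (median -0.020). AP-3 complex subunit mu-2, of an adaptor that sorts proteins to lysosomes, had 0.35 with granulins and -0.16 with disabled homolog 2. AP-2 complex subunit mu isoform X2, of the plasma membrane adaptor that disabled homolog 2 binds in mammals, had -0.19 and 0.059. Low-density lipoprotein receptor-related protein 2, a receptor whose uptake depends on disabled homolog 2 in mammals, had 0.071 and -0.0097.

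**Figure D5:**
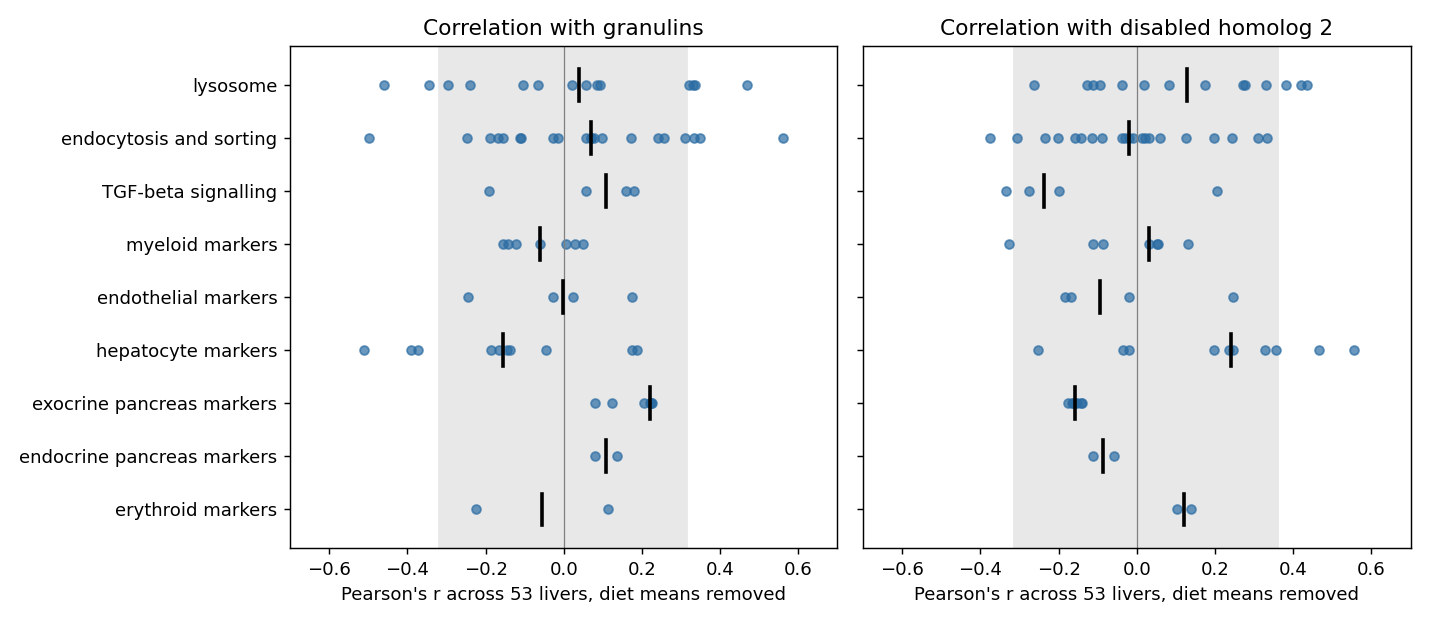
Pearson's r of each listed contig (points) with granulins and with disabled homolog 2 across 53 livers after removal of diet means, by list, with a bar at each list's median. The grey band holds the middle 90% of all other contigs tested, and the medians of all 9 lists lie inside it.

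All lists hold only contigs that the study named as differentially expressed in these libraries. Counts and medians beyond those of all contigs, here and in the paragraphs below, were thus partly fixed by that choice and support nothing alone. In the pair of test diets in which granulins was called higher, Diet 5 over Diet 3, 5 of the 14 lysosomal contigs were called higher and 1 lower. Their median log2 fold change was 0.61, against -0.016 over all contigs, of which 4.51% were called. In the comparisons that selected granulins, 9 of the 14 were called higher and 2 lower for Diet 5 over Diet 1 (6.67% of contigs called), against 0 higher and 4 lower for Diet 6 over Diet 1 (2.16% called), although granulins was higher in both. For Diet 5 over Diet 3, V-type proton ATPase catalytic subunit A rose by 0.79 (SE 0.177, edgeR adjusted p = 0.00299) and V-type proton ATPase subunit E 1-like by 0.87 (SE 0.214, edgeR adjusted p = 0.00688). Iduronate 2-sulfatase, which degrades glycosaminoglycans, rose by 0.69 (SE 0.181), phospholipase D4 by 0.75 (SE 0.238) and gamma-interferon-inducible lysosomal thiol reductase-like by 2.28 (SE 0.636), whereas sialin-like was lower at -1.16 (SE 0.356). Of the 21 endocytosis and sorting contigs, 4 were called higher and 2 lower in this pair. AP-3 complex subunit mu-2 rose by 0.76 (SE 0.171, edgeR adjusted p = 0.00341). The 2 called lower were multivesicular body subunit 12B-like isoform X1 at -1.29 (SE 0.306) and caveolin-1 at -0.81 (SE 0.246). Of the 7 myeloid markers, 4 were called higher in this pair. Among them were neutrophil cytosol factor 1 with 1.11 (SE 0.253) and macrophage-expressed gene 1 protein-like with 0.81 (SE 0.203). The summed level of the 7 myeloid markers was 92.1 to 178 CPM with Diet 5 and 77.5 to 147.8 CPM with Diet 3. No myeloid marker was at 0 in all fish of a diet, and their part in the granulins result was not tested.

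In the pairs in which disabled homolog 2 was called lower, the lysosomal contigs were called lower in 3 of 14 cases and higher in none. This held both for Diet 6 over Diet 2 (median log2 fold change -0.15) and for Diet 6 over Diet 5 (median -0.41). The medians over all contigs were 0.041 and 0.026, and 2.52% and 4.07% of contigs were called. Cathepsin L-like was lower by -0.82 (SE 0.153) and -0.72 (SE 0.156), and alpha-N-acetylglucosaminidase, a lysosomal enzyme of heparan sulphate breakdown, by -0.73 (SE 0.119) and -0.82 (SE 0.122). For Diet 6 over Diets 1, 3 and 4, 4, 2 and 1 of the 14 lysosomal contigs were called lower and 0, 1 and 0 higher. Disabled homolog 2 was not called in those pairs, where 2.16%, 1.16% and 0.45% of all contigs were called. Of the 21 endocytosis and sorting contigs, 1 was called higher and 1 lower for Diet 6 over Diet 2, and 1 higher and 2 lower for Diet 6 over Diet 5. Of these, transferrin receptor protein 1, which brings iron into cells through clathrin-coated pits, was lower by -1.08 (SE 0.168) and -1.30 (SE 0.172). The multivesicular body subunit 12B-like isoform X1 was higher by 1.16 (SE 0.294) and 1.20 (SE 0.304), and TOM1-like protein 2 isoform X2 was called lower for Diet 6 over Diet 5 only, at -0.72 (SE 0.194). Of the 4 contigs of transforming growth factor beta signalling, 1 was called higher for Diet 6 over Diet 2 (2.52% of all contigs called). This was mothers against decapentaplegic homolog 1 (0.90, SE 0.212). Mothers against decapentaplegic homolog 3 is listed as 2 contigs, so the 4 contigs do not stand for 4 separate genes. They gave 0.38 and, as isoform X2, 0.13, and neither was called. All 4 listed contigs were called higher for Diet 6 over Diet 5 (4.07% called), with those of homolog 3 at 0.97 (SE 0.143) and, as isoform X2, 0.68 (SE 0.188). None was called for Diet 6 over Diets 1, 3 or 4 (2.16%, 1.16% and 0.45% of all contigs called). For Diet 5 over Diets 1, 3 and 4, 3 of the 4 were called lower each time (6.67%, 4.51% and 2.49% called).

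Of the 10 hepatocyte markers, also drawn from contigs that the study named as differentially expressed, 6 were called lower and none higher for Diet 6 over Diet 2 (median log2 fold change -0.66, with 2.52% of all contigs called), and 3 were called lower and none higher for Diet 6 over Diet 5 (median -0.49, with 4.07% called). In the second pair 4 of the 10 had positive values that were not called, of 0.091 for alpha-2-HS-glycoprotein-like, 0.25 for alpha-2-macroglobulin-like isoform X1, 0.28 for bile salt export pump-like and 0.41 for solute carrier family 2, facilitated glucose transporter member 2. Their summed level ranged from 16865 to 41462 CPM with Diet 6, against 35870 to 52992 CPM with Diet 2 and 26365 to 34946 CPM with Diet 5. Hepatocyte markers were also called lower for Diet 6 over Diets 1, 3 and 4, in 5, 3 and 4 of 10 cases, with 0 higher. The medians there were -0.68, -0.62 and -0.55, and 2.16%, 1.16% and 0.45% of all contigs were called. Disabled homolog 2 was not called in those pairs, so lower hepatocyte markers were not particular to the pairs in which it was called. Of the 4 endothelial markers, none was called for Diet 6 over Diet 2, where their summed level was 51.8 to 86.9 CPM with Diet 6 and 37.5 to 71.3 CPM with Diet 2, and 1 was called higher for Diet 6 over Diet 5. The part of either cell type in the level of disabled homolog 2 was not tested. With the exocrine pancreas score as a covariate, disabled homolog 2 was lower by -1.35 for Diet 6 over Diet 2 (edgeR adjusted p = 0.000219) and by -1.15 for Diet 6 over Diet 5 (edgeR adjusted p = 0.00171), and granulins was higher by 0.60 for Diet 5 over Diet 3 (edgeR adjusted p = 0.00209). As given above, none of these values is independent of how the contigs were selected.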

How the data were processed

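Liver RNA was sequenced from 54 fish. Per the study's methods and the submitters' processing notes, the authors trimmed reads with Trim Galore 0.6.5 and cutadapt 2.7, aligned them with Bowtie2 2.3.4.1 to a curated transcriptome and estimated counts per contig with eXpress 1.5.1. The deposited values are these estimated counts, already whole numbers with no normalization between libraries, so that rounding changed nothing. The authors compared pairs of diets with DESeq2 1.24.0, and none of their fold changes was used.

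The 53 deep libraries were fitted together in R 4.3.3 with edgeR 4.0.16 (TMM, quasi-likelihood F-test, diet as the only term) over the 9548 contigs whose counts averaged 5 or more. All 15 diet pairs were contrasts of this fit, and p-values were adjusted over all contigs of a contrast. The SE of a log2 fold change is its size over the square root of F. Log2 CPM used a prior count of 0.5. Correlations used 100000 permutations of fish within diets, and ratios used exact permutation tests. The edgeR fit was tested on simulated data. Alternatives included DESeq2 1.42.0, limma 3.58.1 with voom, other scalings, filters and covariates, and leaving out each fish.

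Both contigs and all lists were chosen with earlier results of these data known. The text names the 2 contigs, contigs of 9 lists (71 entries) and, for each, the 6 named contigs with the highest within-diet r. Names come from the study's tables of differentially expressed contigs. The ratio of the 2 contigs and scaling by library totals in the edgeR fit were added after seeing the data. Counts from overlapping or near-identical granulin transcripts could have been split between contigs, which was not tested.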

Additional observations from a re-analysis of the deposited data

Results flagged for a closer look

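Each contig was examined in each of the 6 diets for a fish far from the others of its diet by Dixon's criterion, 12 groups in all, of which chance would single out about 1 in 20. No fish passed the criterion for either contig, and no other result was singled out.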

How the results depend on the processing

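Granulins was called in 3 of 15 diet pairs and disabled homolog 2 in 2, but 2 of the granulins calls, Diets 5 and 6 over Diet 1, are comparisons that selected the contig, so that the stability of this count supports nothing. With no fold threshold granulins was called in 5. DESeq2 called disabled homolog 2 in 5 pairs and an unadjusted p did so in 8. With an unadjusted p, 141 to 1056 of the 9548 contigs were called per pair, against 0 to 637 with adjustment. The shares of all contigs called by DESeq2 or with no fold threshold are not given here. Leaving out each fish gave 2 to 4 calls for each contig, and disabled homolog 2 had 4 without Diet 5 replicate 4, 8 or 9 or Diet 6 replicate 7. The replicate block, with the replicate number as a factor, gave 3 and 2 calls. The numbers share no animal, and samples with the same number in other diets had a median correlation of 0.069, with 43.8% of 130 pairs over 0.1, against -0.0060 and 21.4% of 1040 pairs with other numbers. Same-numbered fish were thus somewhat more alike than fish with other numbers, for a reason that was not tested. The numbers were not used to pair the fish in the main fit.

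Signs changed as follows. Granulins for Diet 6 over Diet 2 was -0.020 with sums per T tag, -0.00206 with voom and -0.045 to 0.078 with fish left out, and for Diet 6 over Diet 5 it was 0.14 with library totals alone. Disabled homolog 2 for Diet 3 over Diet 1 was 0.045 with library totals alone and -0.10 to 0.063 with fish left out. The ratio for Diet 5 over Diet 3 was -0.086 to 0.22 with fish left out. The correlation of the 2 contigs stayed negative, from -0.31 to -0.18 with fish left out.

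With library totals alone the myeloid score had r = 0.12 with granulins and 0.011 with disabled homolog 2. The endothelial score had r with granulins of -0.033 on log2(CPM + 1), -0.055 with T tag means removed, -0.043 with the exocrine score regressed out, -0.41 within L tag 3 and -0.087 to 0.13 with fish left out. Within L tag 2, r was 0.12 for granulins with the erythroid score, 0.52 for disabled homolog 2 with the myeloid score and 0.14 with the endocrine score. Within L tag 3, disabled homolog 2 had 0.11 with the myeloid and 0.26 with the endothelial score, and its myeloid r was -0.10 to 0.086 with fish left out. The cause of these changes was not tested. Depth limits disabled homolog 2 most, whose lowest count was 85.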
